A study of Mus musculus with 12 samples.

Results

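Collagen genes were compared between cortical cultures of Myt1l (+/-) mice, here HET, and Myt1l (+/+) mice, here WT. The deposited count table lists 44 genes whose symbol is that of a collagen alpha chain, among 55397 genes, and these 44 symbols were the rule of choice. Of them, 42 reached 0.5 CPM (counts scaled to library size) in any animal, 11 fibrillar, 8 basement membrane and 23 of other classes. RNA came from 6 animals, 3 HET (505, 506 and 508) and 3 WT (510, 511 and 513), with 2 libraries per animal that were summed. HET mice had lost 7 bp of Myt1l exon 6 in the germline, through CRISPR/Cas9 in zygotes, which shifts the reading frame. The mutant mRNA is not degraded, so the level of Myt1l is no check of the labels. The labels give P0 cortex of male C57BL/6J mice for every sample, whereas the methods of the study name hippocampus or cortex as the source of such cultures and C57BL/6N as the strain of the mutant line. Xist stood at 18805 counts in WT animal 511, against 5 to 10 in the others. Both genotypes were grown on Matrigel with 5% foetal bovine serum and received 2 µM Ara-C, which kills dividing cells, 3 days after plating. The labels do not say whether an animal number stands for 1 pup or for pooled pups.

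Collagens are secreted or membrane-bound proteins built from alpha chains that wind into a triple helix. Fibrillar collagens form the cable-like fibrils of connective tissue, type IV collagens form the sheet of basement membranes, and the remaining families link, decorate or anchor these structures or sit in the cell membrane. In the brain, fibrillar collagens are chiefly made by fibroblasts of the meninges and around vessels, and type IV collagens by cells that contact the vascular and meningeal basement membranes. MYT1L is a zinc finger transcription factor of neurons that represses many non-neuronal genes.

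Of the 42 collagens, 30 were highest in HET 505, and in 19 of the 42 both HET 506 and HET 508 lay within the range of the WT animals. Both held for Col1a1, Col1a2, Col3a1, Col4a1 and Col4a2. In 9 collagens, led by Col8a2, Col6a5, Col4a4 and Col5a3, every HET animal was above every WT animal, and the mean levels of these 4 were 1.91, 2.01, 1.94 and 1.69 times those of WT. Some members did neither, and Col19a1 and Col25a1 were lowest in HET 505. No collagen passed an adjusted p under 0.1 in the quasi-likelihood test of edgeR, and none had every HET animal below every WT animal.

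Over all genes the same test called 0 of 18264 (0%), with a smallest adjusted p of 0.17 for any gene. At an unadjusted p under 0.05, 13.2% of all tested genes were on the higher side in HET and 9.11% on the lower side. Of the 41 collagens both tested and at 0.5 CPM, 7 (17.1%) were on the higher side by that threshold and 0 on the lower. Every HET animal lay above every WT animal in 15.5% and below in 13.5% of all tested genes, against 9 (22.0%) and 0 of the 41 collagens. The share above was thus near that of all genes. Without Col13a1, which reached 0.5 CPM in HET animals alone, 8 of 40 collagens were above. By the unadjusted p under 0.05, 6 of these 40 were on the higher side. DESeq2, run on the same genes and animals, called 8.01% of the 17200 genes with an adjusted p higher and 4.57% lower in HET at an adjusted p under 0.1. It called 6 collagens higher, Col13a1 among them, and 0 lower. The log2 fold change was positive for 32 of 41 collagens, against 50.4% of all genes, and their median was 0.29, against 0.00 over all genes. Without HET 505 it was positive for 19 of 41, against 49.7% of all genes, with a median of -0.02.

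**Figure D1:**
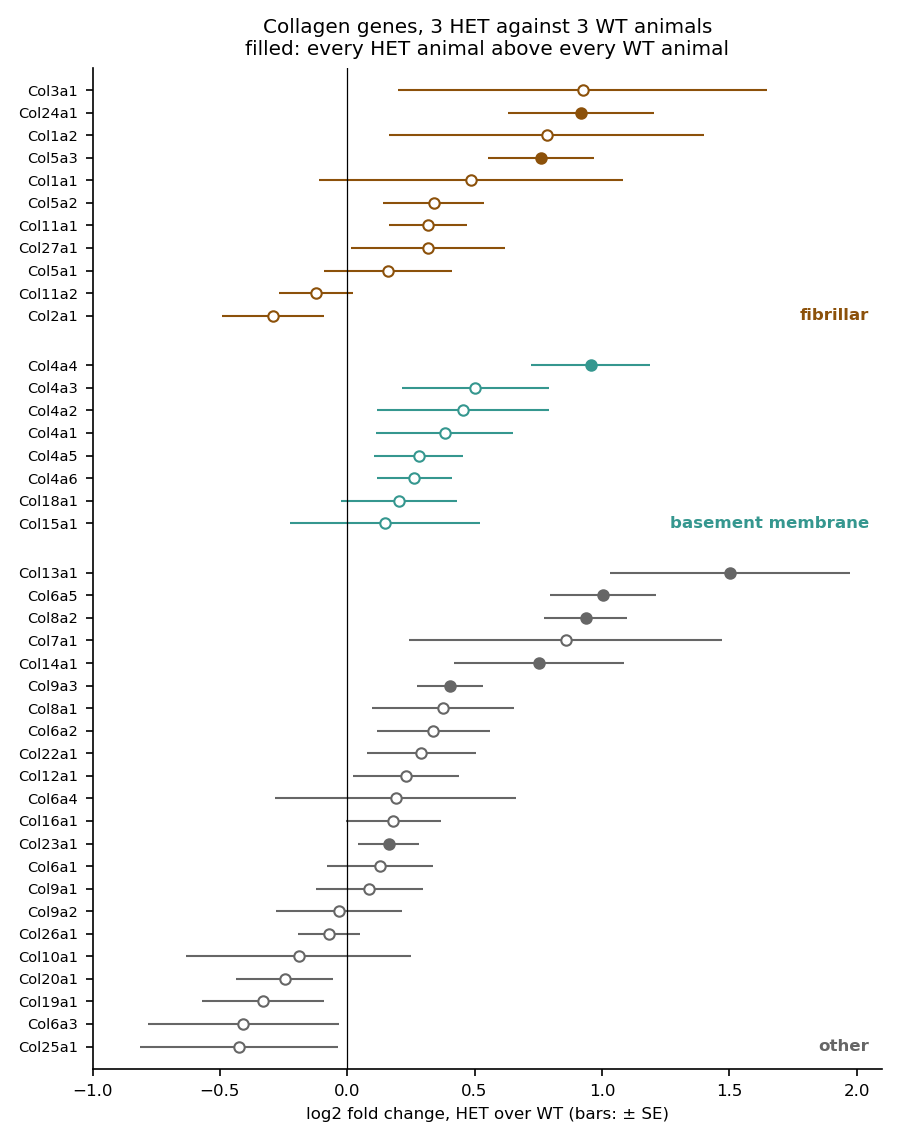
Log2 fold change of HET over WT (x axis, bars ± SE from edgeR, 3 animals per genotype) for the 41 tested collagens, by class down the page. Filled points mark the 9 genes with every HET animal above every WT animal; 32 of 41 points lie right of 0 and none passes an adjusted p under 0.1.

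Fibrillar collagens led with type I. Per kilobase of exon, Col1a1 (mm10, chromosome 11: 94936224-94953042) was the second most abundant collagen at 41.3 CPM per kb, after Col4a1. Col1a1, which encodes the main chain of type I collagen, was at 578, 195 and 176 CPM in HET 505, 506 and 508, against 221, 371 and 85.8 CPM in WT 510, 511 and 513. Col1a2, which encodes its partner chain, was at 471, 154 and 120 CPM in HET, against 144, 233 and 56.3 CPM in WT. Col3a1, the type III chain of extensible tissues, was at 419, 123 and 95.2 CPM in HET, against 106, 198 and 31.6 CPM in WT, so that its highest and lowest animals were 13.2 times apart. In all 3 genes HET 505 was highest, WT 511 second and WT 513 lowest, and the genotypes overlapped. Their log2 fold changes were 0.49 (SE 0.60) for Col1a1, 0.78 (SE 0.62) for Col1a2 and 0.92 (SE 0.72) for Col3a1, with adjusted p-values of 0.61, 0.43 and 0.43 from edgeR. Without HET 505 all 3 turned negative, at -0.28, -0.07 and -0.04.

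Type V collagens, which join type I fibrils and set their width, did not follow one course. Col5a1 was at 174, 107 and 92.9 CPM in HET, against 114, 134 and 86.4 CPM in WT. Col5a2, which neighbours Col3a1 on chromosome 1, was at 262, 176 and 148 CPM in HET, against 145, 162 and 155 CPM in WT. Both had HET 505 as their highest animal and overlapped between genotypes. Col5a3, the third chain of the family (chromosome 9: 20770050-20815067, minus strand), differed from them, at 24.4, 18.8 and 23.8 CPM in HET, against 10.9, 11.0 and 17.7 CPM in WT. Every HET animal was above every WT animal, WT 513 being nearest, and HET 508 was almost as high as HET 505. The log2 fold change of Col5a3 was 0.76 (SE 0.21, adjusted p = 0.17 from edgeR), and 0.63 to 1.02 over all alternatives tried. The 250 bases before and 50 after its start, from RefSeq (GRCm38.p6, chr9:20815018-20815317, minus strand), are shown because Col5a3 was the fibrillar gene of lowest p and they hold AAAGTT, the binding motif of MYT1L. Capitals mark the match, which reads AACTTT on this strand.
Col5a3 promoter: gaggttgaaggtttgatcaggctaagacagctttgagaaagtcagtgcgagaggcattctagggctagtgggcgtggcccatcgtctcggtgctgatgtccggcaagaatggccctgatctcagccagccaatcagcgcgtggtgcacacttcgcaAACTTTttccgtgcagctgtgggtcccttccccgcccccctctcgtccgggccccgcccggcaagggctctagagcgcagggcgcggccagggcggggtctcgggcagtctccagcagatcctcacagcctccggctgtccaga

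AAAGTT, searched on both strands, stood in 6 of the 38 promoter windows that the table holds for 35 of the 44 collagens (15.8%), against 14.1% of all 32851 windows. The 6 were those of Col1a2, Col4a5, Col4a6, Col5a3, Col9a1 and Col28a1. Of these genes Col5a3 was the one whose genotypes did not overlap.

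Col24a1, a fibrillar chain of developing bone, was low, at 0.93, 0.65 and 1.01 CPM in HET, against 0.37, 0.45 and 0.56 CPM in WT. Every HET animal was again above every WT animal, with a log2 fold change of 0.92 (SE 0.29, adjusted p = 0.17 from edgeR). At this level the 2 libraries of an animal differed by up to 82.1% of their mean. Col11a1, the type XI chain of cartilage fibrils, was at 69.1, 50.8 and 57.7 CPM in HET, against 44.0, 42.0 and 56.6 CPM in WT. It overlapped through WT 513 alone (log2 fold change 0.32, SE 0.15, adjusted p = 0.25 from edgeR, and 0.19 without HET 505). Its partner Col11a2 was at 11.4, 8.57 and 10.01 CPM in HET, against 11.8, 9.55 and 11.3 CPM in WT. Col2a1, the cartilage chain, was at 6.13, 3.98 and 4.13 CPM in HET, against 6.11, 6.23 and 5.10 CPM in WT, and Col27a1, a chain of developing cartilage, was at 6.85, 3.43 and 3.49 CPM, against 2.94, 3.81 and 4.35 CPM. These last 3 genes overlapped between genotypes, and Col2a1 and Col11a2 were the fibrillar members with a negative fold change (-0.29, SE 0.20, and -0.12, SE 0.15).

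As a class, the fibrillar collagens summed to 2022, 842 and 732 CPM in HET, against 806, 1171 and 511 CPM in WT (1199 ± 715 and 830 ± 331 CPM, SD, n = 3 each). HET 505 alone lay above the WT range. The median log2 fold change of the 11 members was 0.34, against 0.00 over all genes, and 8 of the 11 were highest in HET 505. Without that animal the median was -0.07.

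**Figure D2:**
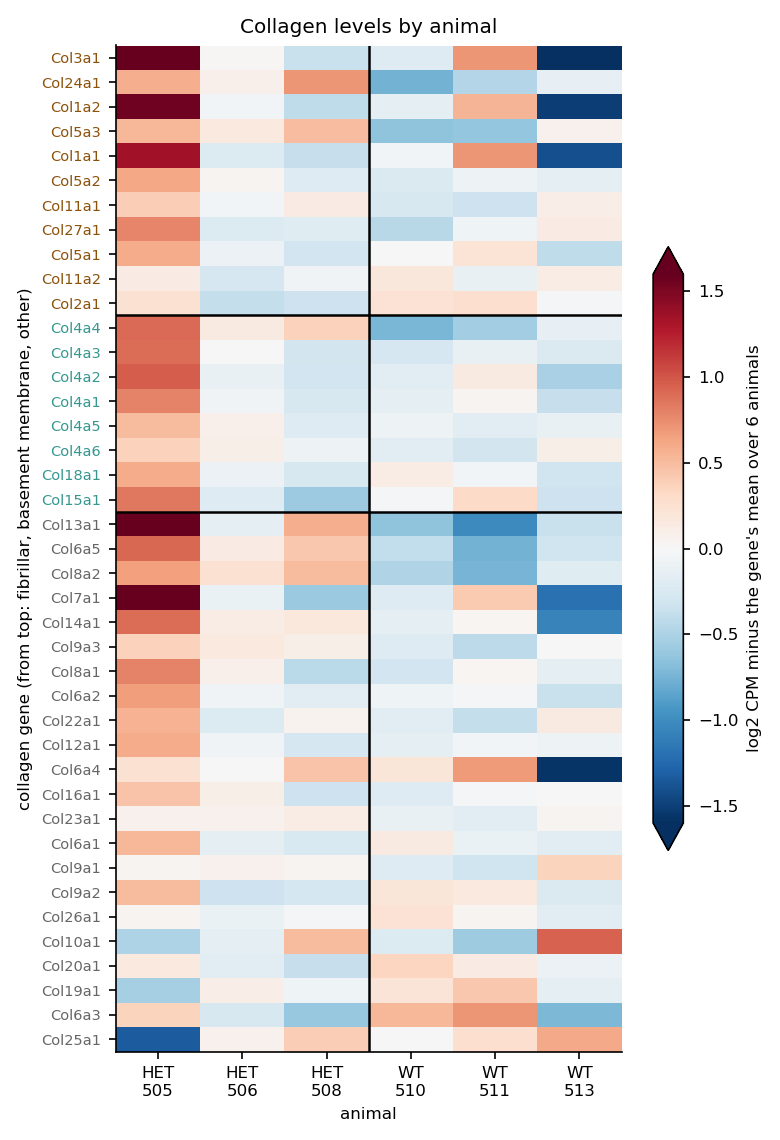
Level of each of 41 collagens (rows, by class and fold change) in each animal (columns, HET left of the line, WT right), as log2 CPM minus the mean of the gene over the 6 animals. HET 505 is the reddest column in most rows, WT 513 is pale to blue in Col1a1, Col1a2, Col3a1 and Col7a1, and the rows of Col8a2, Col6a5, Col4a4 and Col5a3 are red in all 3 HET columns.

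Basement membrane collagens were all highest in HET 505, 8 of 8. Col4a1, the most abundant collagen of these cultures at 53.2 CPM per kb, and Col4a2 encode the chains of the common type IV network and lie head to head on chromosome 8, Col4a1 at 11198423-11312826 on the minus strand and Col4a2 at 11312805-11449287 on the plus strand, with 22 bases shared. Col4a1 was at 662, 368 and 319 CPM in HET, against 344, 395 and 295 CPM in WT. Col4a2 was at 321, 151 and 132 CPM in HET, against 145, 181 and 114 CPM in WT. Apart from HET 505, the HET animals lay within the WT range in both. The log2 fold changes were 0.38 (SE 0.27) and 0.46 (SE 0.34), with adjusted p-values of 0.39 and 0.41 from edgeR, and they were -0.01 and -0.05 without HET 505. The start of Col4a1 is shown because both starts of the pair lie in it (RefSeq, GRCm38.p6, chr8:11312777-11313076, minus strand); capitals mark a CCAAT match, which reads ATTGG on this strand.
Col4a1 promoter: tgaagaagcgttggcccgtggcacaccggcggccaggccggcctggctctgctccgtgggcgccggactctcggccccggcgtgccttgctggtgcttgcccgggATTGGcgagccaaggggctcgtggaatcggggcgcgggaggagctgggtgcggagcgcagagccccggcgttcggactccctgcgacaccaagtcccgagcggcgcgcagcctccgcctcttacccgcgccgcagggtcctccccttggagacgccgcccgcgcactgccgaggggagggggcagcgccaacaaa

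CCAAT, searched on both strands, stood in 34.2% of the 38 collagen windows, against 37.4% of all windows.

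Col4a5 and Col4a6, the chains of basement membranes in kidney, smooth muscle and skin, lie head to head on the X chromosome, 1308 bases apart. Col4a5 was at 359, 266 and 218 CPM in HET, against 238, 224 and 232 CPM in WT, and Col4a6 was at 155, 128 and 114 CPM in HET, against 105, 97.5 and 127 CPM in WT. Both overlapped, with log2 fold changes of 0.28 (SE 0.17) and 0.26 (SE 0.15) and adjusted p-values of 0.34 and 0.30 from edgeR. Without HET 505 the fold changes were 0.06 and 0.13.

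The last type IV pair diverged. Col4a3 and Col4a4 encode chains that join Col4a5 in the basement membranes of kidney, lung and inner ear, and lie head to head on chromosome 1, with 71 bases between Col4a4 (82448423-82586849, minus strand) and Col4a3 (82586921-82722059, plus strand). Col4a4 was at 19.7, 11.7 and 13.6 CPM in HET, against 6.36, 7.21 and 9.67 CPM in WT, every HET animal above every WT animal. Its log2 fold change was 0.96 (SE 0.23, adjusted p = 0.17 from edgeR), and 0.71 to 1.13 over all alternatives. Col4a3 was at 12.2, 6.59 and 5.36 CPM in HET, against 5.42, 6.05 and 5.60 CPM in WT. In Col4a3 HET 508 was below all WT animals and HET 505 stood apart (log2 fold change 0.50, SE 0.29, adjusted p = 0.31 from edgeR, and 0.07 without HET 505). The log2 ratio of Col4a3 to Col4a4, per length, was -0.60, -0.74 and -1.25 in HET, against -0.14, -0.16 and -0.70 in WT. WT 513 at -0.70 lay within the HET range. This pair was picked after its values were seen and was not tested. Of Col4a3, 563 exonic bases (5.65%) lie under an exon of the opposite strand, and no source used here says whether counting was by strand. The window of Col4a4 is shown because it holds both starts (RefSeq, GRCm38.p6, chr1:82586800-82587099, minus strand); capitals mark the 71 bases between the genes.
Col4a4 promoter: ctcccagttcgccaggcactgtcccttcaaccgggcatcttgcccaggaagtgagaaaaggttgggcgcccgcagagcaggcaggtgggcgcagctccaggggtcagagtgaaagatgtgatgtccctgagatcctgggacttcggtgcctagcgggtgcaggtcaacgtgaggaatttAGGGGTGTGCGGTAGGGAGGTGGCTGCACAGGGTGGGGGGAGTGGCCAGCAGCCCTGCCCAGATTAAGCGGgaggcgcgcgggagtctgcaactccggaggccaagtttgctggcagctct

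Col18a1 and Col15a1 encode the proteoglycan collagens that attach basement membranes to tissue, Col18a1 being the source of endostatin. Col18a1 was at 212, 131 and 117 CPM in HET, against 152, 135 and 112 CPM in WT. Col15a1 was at 3.70, 1.79 and 1.38 CPM in HET, against 2.02, 2.56 and 1.64 CPM in WT. Both overlapped, and both had a negative fold change without HET 505 (-0.10 and -0.39). Summed over the class, levels were 1745, 1064 and 920 CPM in HET, against 999.9, 1048 and 897 CPM in WT (1243 ± 441 and 982 ± 77.4 CPM, SD, n = 3 each), with HET 508 within the WT range and HET 506 just above it. The median log2 fold change of the 8 members was 0.33, and all 8 were positive. Without HET 505 the median was 0.03 and Col15a1, Col18a1, Col4a1 and Col4a2 were negative.

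Among the other collagens, the short-chain network type VIII, known from Descemet's membrane of the cornea and from vessel walls, gave the lowest p of any collagen. Col8a2 (chromosome 4: 126286793-126314330, plus strand) was at 75.8, 56.7 and 68.2 CPM in HET, against 34.2, 28.6 and 42.0 CPM in WT. The lowest HET animal was 14.7 CPM above the highest WT animal. Its log2 fold change was 0.94 (SE 0.16, adjusted p = 0.17 from edgeR), and 0.81 to 1.08 over all alternatives. Its partner Col8a1 was at 129, 78.3 and 54.9 CPM in HET, against 60.0, 75.6 and 66.4 CPM in WT. Col8a1 overlapped, with HET 508 lowest of all animals. The start of Col8a2 is shown as that of the collagen with the lowest p (RefSeq, GRCm38.p6, chr4:126286544-126286843, plus strand); capitals mark 4 matches to GGGCGG, the core of a GC box, on either strand, 2 of which overlap.
Col8a2 promoter: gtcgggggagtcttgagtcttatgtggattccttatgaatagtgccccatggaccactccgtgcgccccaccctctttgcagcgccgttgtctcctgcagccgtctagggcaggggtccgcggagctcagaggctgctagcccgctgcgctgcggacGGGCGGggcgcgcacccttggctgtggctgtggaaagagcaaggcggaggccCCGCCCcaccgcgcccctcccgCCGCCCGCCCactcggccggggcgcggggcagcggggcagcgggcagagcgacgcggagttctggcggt

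GGGCGG, searched on both strands, stood in 60.5% of the 38 collagen windows, against 35.7% of all windows. The genes with a match were 22 of 35. They included Col6a5 and Col5a3, but also Col4a1, Col4a2, Col5a1, Col6a2 and Col8a1, whose genotypes overlapped, and not Col4a4.

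Type VI collagens form beaded filaments around cells. Col6a5, a chain that can take the third place in the trimer (chromosome 9: 105856078-105960643, minus strand), was at 125, 72.5 and 89.6 CPM in HET, against 50.8, 39.3 and 53.1 CPM in WT. The lowest HET animal was 19.4 CPM above the highest WT animal, the widest gap in CPM of the collagens that did not overlap. The log2 fold change was 1.00 (SE 0.21, adjusted p = 0.17 from edgeR), and 0.76 to 1.15 over all alternatives. The obligate chains did not share this. Col6a1 was at 183, 115 and 107 CPM in HET, against 140, 118 and 112 CPM in WT, and Col6a2 was at 61.3, 37.1 and 33.9 CPM in HET, against 36.8, 38.0 and 29.9 CPM in WT. Both overlapped (log2 fold changes 0.13, SE 0.21, and 0.34, SE 0.22), and without HET 505 the fold changes were -0.15 and 0.03. Of the chains that alternate with Col6a5, Col6a3 averaged 12.6 ± 4.36 CPM in HET and 16.8 ± 7.43 CPM in WT, and Col6a4 averaged 1.15 ± 0.18 CPM in HET and 1.00 ± 0.62 CPM in WT (SD, n = 3 each). Col6a6 reached 0.51 CPM in HET 505 alone, and the low-count filter left it out of the test.

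**Figure D3:**
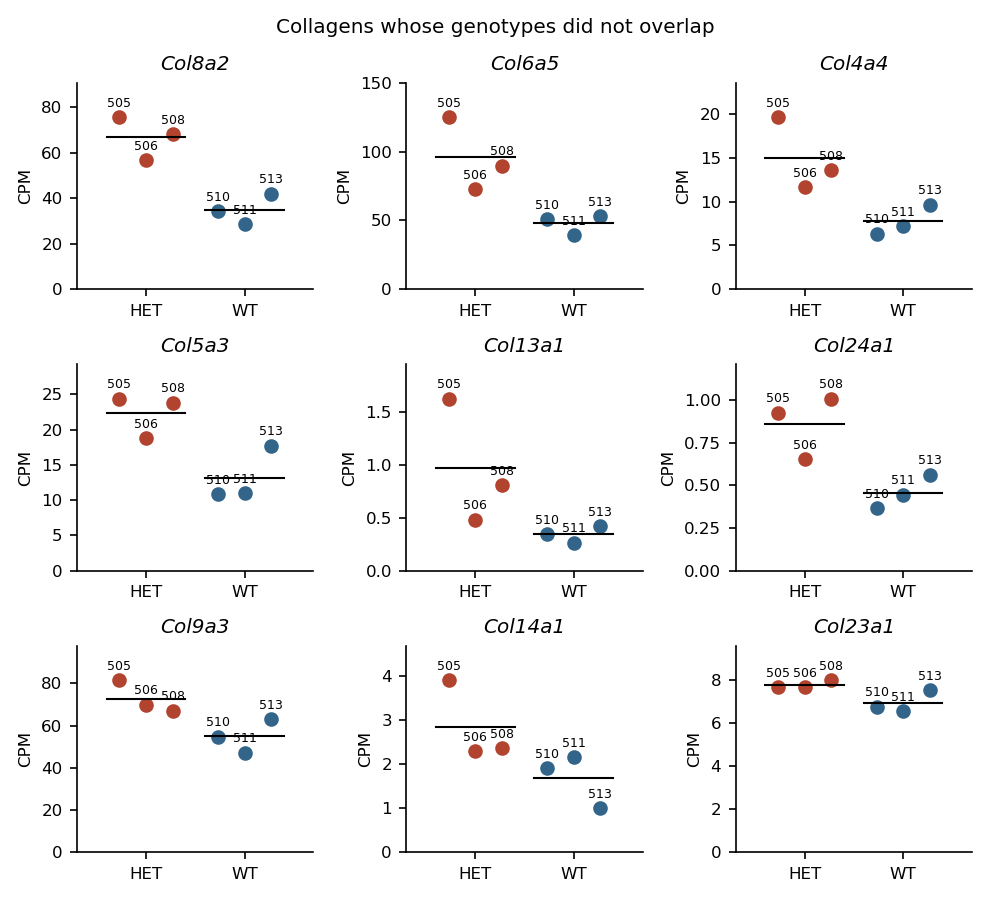
CPM per animal (numbered points; HET left, WT right; lines, means of 3) of the 9 collagens with every HET animal above every WT animal, in order of p. HET 505 is the highest HET animal in 7 of the 9, and WT 513 is the WT animal nearest to the HET animals in 8 of the 9.

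The collagens that coat fibrils (FACIT) included Col9a3, a type IX chain of cartilage, at 81.5, 70.0 and 67.0 CPM in HET, against 54.7, 47.2 and 63.2 CPM in WT. Every HET animal was above every WT animal (log2 fold change 0.40, SE 0.13, adjusted p = 0.17 from edgeR). Of its exonic bases 6.07% lie under the opposite-strand gene Tcfl5. Col12a1, which links fibrils to the matrix, was at 257, 162 and 141 CPM in HET, against 153, 164 and 160 CPM in WT. Col16a1, at 55.3, 42.7 and 31.9 CPM in HET against 34.7, 39.7 and 40.3 CPM in WT, and Col22a1, a chain of tissue junctions, at 28.8, 16.8 and 20.3 CPM in HET against 17.4, 15.0 and 21.5 CPM in WT, also overlapped. Col14a1, named for its lack of overlap after its values were seen, was at 3.90, 2.29 and 2.36 CPM in HET, against 1.90, 2.16 and 1.01 CPM in WT (log2 fold change 0.75, SE 0.33, adjusted p = 0.23 from edgeR, and 0.46 without HET 505). The remaining FACIT members, Col9a1, Col9a2, Col19a1 and Col20a1, had group means between 1.73 and 7.57 CPM and overlapped.

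Of the membrane-spanning collagens, Col13a1, known from the neuromuscular junction, was at 1.63, 0.48 and 0.81 CPM in HET, against 0.35, 0.27 and 0.42 CPM in WT. It had the highest log2 fold change of any collagen, 1.50 (SE 0.47, adjusted p = 0.17 from edgeR), and 0.90 without HET 505, but reached 0.5 CPM in HET 505 and 508 alone, and both libraries of an animal differed by up to 99.2% of their mean. Col23a1, also named after its values were seen, was at 7.65, 7.65 and 7.97 CPM in HET, against 6.74, 6.52 and 7.52 CPM in WT (log2 fold change 0.16, SE 0.12, adjusted p = 0.41 from edgeR). Col25a1, a collagen of neurons, went the other way from most members in HET 505, at 3.59, 9.51 and 11.9 CPM in HET, against 8.97, 10.8 and 13.7 CPM in WT. The genotypes overlapped (log2 fold change -0.43, SE 0.39, adjusted p = 0.50 from edgeR). Col25a1 and Col19a1 were the 2 collagens that were lowest in HET 505. Col7a1, the anchoring fibril chain of skin, had the animal order of Col1a2 and Col3a1 and is named for that after its values were seen. It was at 50.9, 14.8 and 10.5 CPM in HET, against 13.8, 21.3 and 6.98 CPM in WT. Col26a1, a collagen of reproductive tissue, was at 22.8, 20.4 and 21.5 CPM in HET, against 25.8, 22.7 and 19.5 CPM in WT, and Col10a1, of growth plate cartilage, averaged 1.03 ± 0.37 CPM in HET and 1.18 ± 0.69 CPM in WT (SD, n = 3 each). Col28a1 and Col17a1 stayed under 0.5 CPM in every animal, with maxima of 0.38 and 0.22 CPM. Summed over the other collagens, levels were 1126, 735 and 695 CPM in HET, against 680, 672 and 664 CPM in WT (852 ± 238 and 672 ± 8.11 CPM, SD, n = 3 each). Here all 3 HET animals were above the WT animals, HET 508 by the least. The median log2 fold change of the 22 tested members was 0.19, and -0.00059 without HET 505.

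Ratios of partner chains do not depend on how libraries are scaled, and 6 were compared by an exact two-sided permutation test over animals, whose smallest possible p is 0.1 with 3 against 3. The log2 ratio of Col1a1 to Col1a2, per length, was 1.21, 1.26 and 1.47 in HET, against 1.54, 1.59 and 1.53 in WT (p = 0.1, adjusted p = 0.40 over the 6 ratios, exact test). All 3 HET animals were below all WT animals, a mean difference of -0.24. For Col8a1 to Col8a2 it was -0.04, -0.34 and -1.12 in HET, against 0.01, 0.60 and -0.14 in WT (difference -0.65, exact p = 0.2, adjusted p = 0.40). The ratio for Col6a1 to Col6a2 differed by -0.20 (exact p = 0.2), that for Col5a1 to Col5a2 by -0.17 (exact p = 0.4), that for Col9a1 to Col9a2 by 0.19 (exact p = 0.9) and that for Col4a1 to Col4a2 by -0.05 (exact p = 0.7). None of the 6 passed after adjustment, which this number of animals could not have reached.

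**Figure D4:**
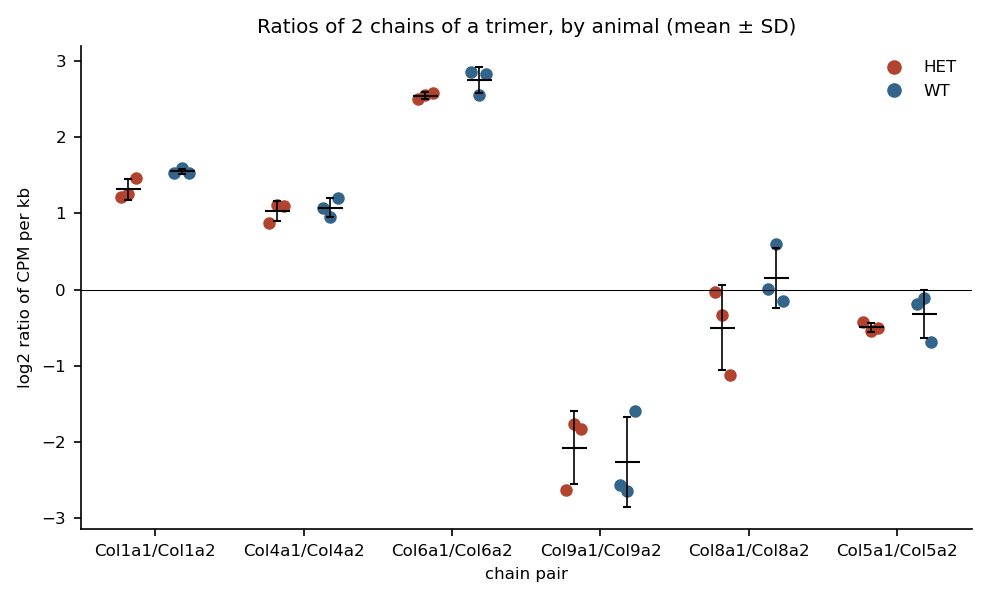
Log2 ratio of CPM per kb of 2 partner chains (y axis) for 6 chain pairs, per animal (points; HET left, WT right of each pair), with mean ± SD of 3 animals. The Col1a1 to Col1a2 ratio is the pair in which the genotypes do not overlap, at 1.21 to 1.47 in HET and 1.53 to 1.59 in WT.

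The genes that collagens work with were examined in 6 lists, of which none had a member past an adjusted p of 0.1 in edgeR. The counts of direction given for these lists rest on all 6 animals, HET 505 included. Over all genes, the shares to set beside the counts were 50.4% with a positive fold change and 13.2% on the higher and 9.11% on the lower side at an unadjusted p under 0.05. Every HET animal was above every WT animal in 15.5% and below in 13.5% of all tested genes. Of 19 genes that modify and fold the chains, 15 had a positive and 4 a negative fold change, 2 and 1 of them past that p. Plod1, a lysyl hydroxylase, was at 84.7, 68.4 and 68.2 CPM in HET, against 50.4, 53.6 and 63.2 CPM in WT, every HET animal above every WT animal. Plod2, which hydroxylates lysines that are later cross-linked, was at 123, 89.1 and 88.5 CPM in HET, against 79.1, 76.4 and 82.8 CPM in WT (log2 fold change 0.34, SE 0.14, and 0.16 without HET 505). P4ha2, a catalytic subunit of prolyl 4-hydroxylase, which stabilises the helix, pointed the other way, at 55.2, 54.5 and 44.4 CPM in HET, against 78.0, 82.2 and 54.9 CPM in WT (log2 fold change -0.48, SE 0.16, adjusted p = 0.18 from edgeR). In P4ha2 WT 513 was at the level of HET 505 and 506. Of 14 processing and cross-linking genes 12 were positive and 2 of them past that p. The list summed to 817, 477 and 437 CPM in HET, against 459, 523 and 387 CPM in WT. HET 505 alone lay above the WT range. Pcolce2, an enhancer of procollagen cleavage, was at 6.61, 4.71 and 4.01 CPM in HET against 3.40, 3.09 and 2.29 CPM in WT. Adamts14, a procollagen amino-peptidase, was at 4.96, 2.34 and 2.75 CPM in HET, against 1.56, 2.38 and 1.83 CPM in WT, and overlapped (log2 fold change 0.81, SE 0.32, and 0.41 without HET 505). Adamts3, named for its lack of overlap after its values were seen, went the other way, every HET animal below every WT animal. It was at 17.8, 31.9 and 35.4 CPM in HET, against 39.3, 50.2 and 36.4 CPM in WT (log2 fold change -0.57, SE 0.25).

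Of the collagen receptors, 10 of 10 tested had a positive fold change, 3 of them at an unadjusted p under 0.05, beside 50.4% and 13.2% of all genes. The list summed to 1919, 1485 and 1520 CPM in HET, against 1300, 1186 and 1428 CPM in WT, with Ddr1 as its largest part. Ddr1, a receptor tyrosine kinase that binds collagen, was at 989, 840 and 935 CPM in HET, against 670, 572 and 801 CPM in WT. Its sister Ddr2 was at 88.1, 56.4 and 56.0 CPM in HET, against 40.4, 46.5 and 55.3 CPM in WT, and the leukocyte receptor Lair1 was at 4.05, 1.93 and 1.99 CPM in HET, against 1.31, 1.49 and 1.66 CPM in WT. All 3 had every HET animal above every WT animal, but the log2 fold changes of Ddr2 (0.50, SE 0.20) and Lair1 (0.84, SE 0.32) were 0.25 and 0.40 without HET 505. Among 15 basement membrane partners 13 were positive and 2 of them past that p. The list summed to 2262, 1591 and 1553 CPM in HET, against 1532, 1562 and 1539 CPM in WT. HET 508 lay within the WT range and HET 506 just above it. Lama3, a laminin chain, was at 15.8, 11.8 and 14.5 CPM in HET against 7.70, 7.10 and 9.36 CPM in WT (log2 fold change 0.80, SE 0.16, adjusted p = 0.17 from edgeR). Lamb2, the laminin chain of synapses and vessels, was at 542, 460.0 and 484 CPM in HET, against 387, 340.1 and 448 CPM in WT (log2 fold change 0.34, SE 0.13). All 10 fibril partners were positive, 1 of them past that p. This gene, Sparc, which binds collagen as it is secreted, was at 4037, 3647 and 3545 CPM in HET, against 2756, 2468 and 3389 CPM in WT. Sparc was the 1 fibril partner with every HET animal above every WT animal. In Fn1, at 1175, 700 and 592 CPM in HET against 625, 786 and 706 CPM in WT, HET 505 alone lay above the WT range. Fmod was highest in HET 506. Of 9 fibrogenic signals 5 were positive and 2 of them past that p. Tgfbr2, the receptor that binds TGF-beta first, was at 72.7, 45.3 and 48.2 CPM in HET against 32.8, 31.5 and 39.5 CPM in WT (log2 fold change 0.68, SE 0.19, and 0.43 without HET 505). Its partner Tgfbr1 was at 16.8, 12.3 and 11.3 CPM in HET, against 9.45, 11.2 and 9.997 CPM in WT (log2 fold change 0.40, SE 0.17, and 0.21 without HET 505). In Ddr1, Lama3, Sparc and Tgfbr2, as in Col8a2 and Col5a3, WT 513 was the highest WT animal.

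Markers of cell types that such cultures may hold also differed between animals. The summed level of 10 meningeal fibroblast markers was 347, 185 and 160 CPM in HET, against 147, 170 and 164 CPM in WT, with HET 505 apart and HET 508 within the WT range. Dcn and Lum, defining genes of that type, were at 62.3 and 14.9 CPM in HET 505, but at 12.05 to 15.8 and 2.21 to 2.53 CPM in HET 506 and 508, against 8.33 to 20.3 and 0.87 to 4.58 CPM in WT. Islr, the largest part of the sum, was at 184, 144 and 126 CPM in HET, against 114, 120 and 144 CPM in WT. All 9 tested markers had a positive fold change. Choroid plexus markers summed to 1570, 747 and 413 CPM in HET, against 293, 186 and 101 CPM in WT, with 9 of 10 positive. Of that sum Ttr alone held 1302, 631 and 303 CPM in HET, against 205, 82.9 and 47.1 CPM in WT. Microglia markers summed to 194, 110 and 104 CPM in HET, against 81.1, 99.1 and 78.8 CPM in WT, with 8 of 8 positive. Astrocyte markers summed to 12674, 12052 and 11526 CPM in HET, against 8321, 8309 and 12678 CPM in WT, with 6 of 8 positive, so that WT 513 was at the HET level. Gfap, the largest part, was at 6079, 5799 and 5859 CPM in HET, against 2769, 3233 and 6156 CPM in WT. Slc1a2 and Slc1a3 had log2 fold changes of -0.07 and -0.02. Neuron markers summed to 2140, 3677 and 4022 CPM in HET, against 4302, 4675 and 4088 CPM in WT, with 8 of 8 negative and HET 505 lowest. Endothelial markers summed to 119 to 200 CPM in HET and 107 to 123 CPM in WT, with 7 of 8 tested markers positive. The defining gene Cldn5 was at 0.06 CPM or less in every animal, and several other members were also low. Tie1 stayed at 0.13 CPM or less, Pecam1 was at 0.27 to 0.68 CPM and Emcn at 0.19 to 1.15 CPM over all animals. Cdh5 was at 20.5, 3.79 and 3.61 CPM in HET, against 2.52, 5.54 and 0.42 CPM in WT. Kdr, the 1 endothelial marker with an unadjusted p under 0.05 from edgeR, was at 29.0, 15.6 and 19.0 CPM in HET. In WT it was at 15.0, 11.2 and 9.76 CPM. Slco1a4, the largest part of the sum, was at 87.8 to 136 CPM in HET and 79.1 to 104 CPM in WT. Mural markers summed to 649 to 1073 CPM in HET and 595 to 775 CPM in WT, with 8 of 9 positive. Higd1b was at 0.02 CPM or less, but Acta2 was at 317 to 483 CPM in HET and 278 to 364 CPM in WT. Vtn was at 25.8, 9.92 and 8.75 CPM in HET, against 5.76, 5.88 and 3.91 CPM in WT. It was the 1 tested mural marker without overlap and with an unadjusted p under 0.05 from edgeR. Log2 fold changes were 0.30 for Pdgfrb, 0.13 for Myh11, 0.08 for Rgs5, 0.03 for Notch3 and -0.40 for Abcc9. Oligodendrocyte lineage markers summed to 105 to 129 CPM in HET and 84.8 to 108 CPM in WT, with 4 of 6 positive. The part of these cell type differences in the collagen values was not tested. In bulk RNA, more cells of a type and more RNA per cell cannot be told apart.

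**Figure D5:**
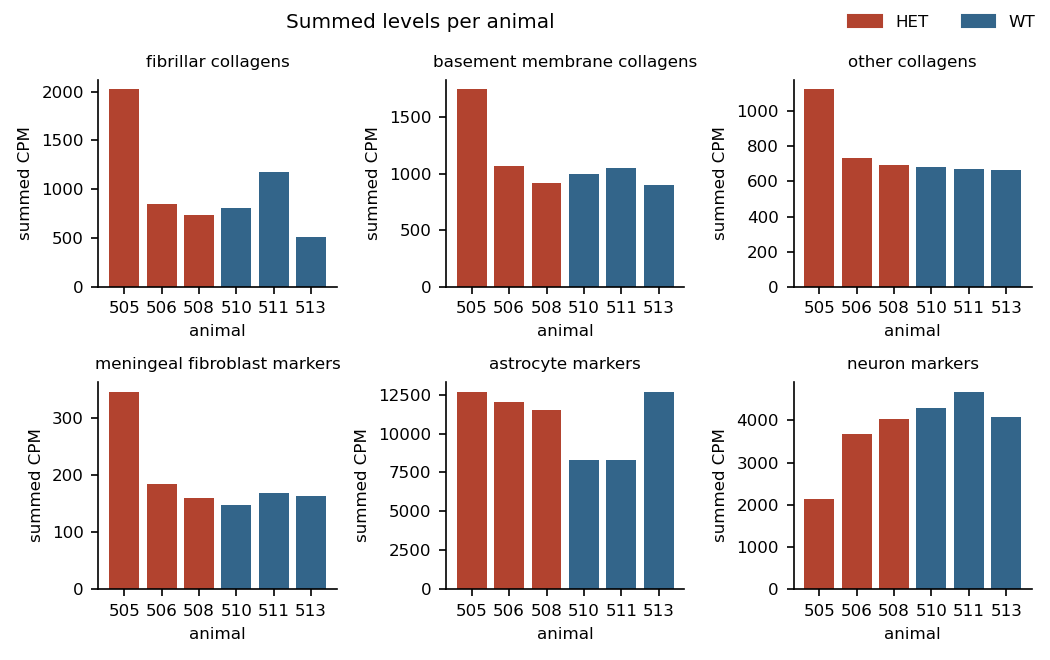
Summed CPM per animal (bars from 0; HET left, WT right) of the 3 collagen classes and of 3 marker lists. HET 505 has the highest collagen sum in each class and the lowest neuron marker sum, 2140 CPM, and WT 513 has an astrocyte marker sum of 12678 CPM beside 8321 and 8309 CPM in the other WT animals.

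The calls depended on the test, on the low-count filter and on WT 513. With all 6 animals and no filter beyond a count above 0, edgeR called 1475 of 32322 genes, 1021 higher and 454 lower in HET. Among the collagens it called Col4a4, Col5a3, Col6a5, Col8a2 and Col13a1, all higher. DESeq2 put Col4a4 (adjusted p = 0.0069), Col5a3 (0.023), Col6a5 (0.0012), Col8a2 (0.00025), Col9a3 (0.077) and Col13a1 (0.062) past an adjusted p of 0.1. Without WT 513, edgeR called 12.3% of all genes higher and 5.95% lower, and among the collagens Col4a4, Col5a3, Col6a5, Col8a2, Col9a3, Col11a1 and Col24a1, all higher. With genetic sex as a covariate, which removes the lone Xist-positive animal WT 511 from the comparison, edgeR called none, and the smallest adjusted p over all genes was 0.49.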

How the data were processed

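RNA-Seq of cultures from 3 HET and 3 WT animals, with 2 libraries each, was analysed. Members and gene lists were chosen with earlier results of these data known. Raw counts, as deposited by the authors, came from strand-marked libraries mapped with STAR to mm10, and no source used here names the counting tool. The deposited normalised counts and the authors' own table of fold changes and p-values were not used. Animal and genotype stand in the sample titles, and an animal's 2 libraries were added up. Libraries held 20181477 to 26594444 counts, and animals 40642699 to 43745258 in HET and 43129302 to 52833161 in WT. No source says what separates the libraries of an animal, or how the cultures of different animals were set up, so p-values measure only the spread between these 6 samples.

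In R 4.3.3, edgeR 4.0.16 was run with filterByExpr by genotype, which kept 18264 of 55397 genes, TMM factors and the quasi-likelihood test. P-values were adjusted over all tested genes by Benjamini-Hochberg, with a threshold of 0.1. SE is the log2 fold change over the root of F. CPM uses the TMM-scaled library size. Class medians and sums carry no test. Both edgeR and DESeq2 1.42.0 were tested on simulated counts. These were drawn for each gene independently, without shifts of an animal across many genes, so they cannot tell why the tests differed here. Values per animal are given for all fibrillar and basement membrane members at 0.5 CPM or more in any animal, for the 10 other members with the highest mean CPM, for any with an unadjusted p under 0.05, and for up to 4 partner genes per list with the smallest p, here those under 0.05; exceptions are marked. Alternatives were DESeq2's size factors, 2 other low-count filters, DESeq2, genetic sex, either library alone, a threshold of 0.05 and each animal left out. Exonic overlaps come from GENCODE vM21, promoters from RefSeq.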

Additional observations from a re-analysis of the deposited data

How the results depend on the processing

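The count of genes past an adjusted p of 0.1 was 0 in the edgeR fit and also with DESeq2's size factors, the CPM filter, either library alone, genetic sex, a threshold of 0.05 and each animal left out except WT 513. It was 1475 of 32322 genes without a low-count filter (1021 higher, 454 lower in HET), 2163 of 17200 with DESeq2 and 3403 of 18638 without WT 513. Leaving out an animal thus gave 0 to 3403. Collagens called were 5 without the filter, 6 with DESeq2 and 0 to 7 with an animal left out, all higher. Partner genes called were 4, 7 and 0 to 10 in the same settings. With an animal left out, the median log2 fold change ran from -0.073 to 0.50 for fibrillar, 0.03 to 0.50 for basement membrane and -0.00059 to 0.30 for other collagens, lowest without HET 505 in each class. Single collagens whose sign turned with an animal left out ran, in log2 fold change, at -0.39 to 0.40 for Col15a1, -0.10 to 0.36 for Col18a1, -0.0055 to 0.57 for Col4a1, -0.054 to 0.68 for Col4a2, -0.28 to 1.04 for Col1a1, -0.073 to 1.31 for Col1a2, -0.094 to 0.47 for Col27a1, -0.038 to 1.62 for Col3a1, -0.16 to 0.33 for Col5a1, -0.069 to 0.39 for Col12a1, -0.15 to 0.26 for Col6a1, -0.015 to 0.61 for Col8a1, -0.034 to 0.35 for Col16a1, -0.15 to 1.29 for Col7a1, -0.18 to 0.020 for Col26a1. The list leaves out Col6a3, Col6a4, Col9a1, Col9a2, Col10a1, Col19a1, Col20a1 and Col25a1, whose signs were not followed singly. With library 2 alone Col15a1 was at -0.080. The log2 chain ratio difference ran from -0.11 to 0.032 for Col4a1 to Col4a2 with an animal left out and was -0.083 for Col9a1 to Col9a2 with library 1 alone. The cause of these shifts was not tested. Where 1 genotype kept 2 animals, the spread was pooled over both genotypes. Members near 0.5 CPM rest on few reads. No paired analysis was possible because the numbers in the titles name both libraries of an animal, which were summed, and the animals of the 2 genotypes share no number.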
